A study of Mus musculus with 12 samples.

Results

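The fatty acid desaturases and elongases described here are 10 genes, Scd1, Scd2, Fads1, Fads2, Fads6, Elovl1, Elovl2, Elovl3, Elovl5 and Elovl6, chosen by name from the 52636 genes of the table and read in all 12 libraries. The libraries are polyA RNA sequencing of hepatocytes, the main cell of the liver, from steatotic (fat-laden) mouse livers. The cells of each liver were divided by Percoll gradient and centrifugation into a fraction of low and a fraction of high lipid content. Mice were wild type (WT) or knockout (KO) for Ptprk, a receptor-type tyrosine phosphatase, and with 2 genotypes and 2 fractions there are 4 groups of 3 libraries. By the labels' mouse names both libraries of a replicate number come from the same animal, so the 12 libraries hold 6 mice, 3 of each genotype, and WT and KO mice of the same number are different animals. Mice are numbered below by replicate, which is not always the number in the labels' mouse names. How the knockout was made, the diet that made the livers steatotic, age and sex are not stated in the labels used here.

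A fatty acid made by the cell or taken from food is lengthened and unsaturated in the endoplasmic reticulum. Desaturases insert a double bond, using electrons passed on by cytochrome b5. Elongases condense malonyl-CoA with the chain as the first step of a cycle that Hsd17b12, the Hacd dehydratases and Tecr complete. In liver, Scd1 makes oleate and palmitoleate, which fill triglycerides. The saturated route (Elovl6, Elovl1, Elovl3) and the polyunsaturated route (Fads2, Elovl5, Fads1, Elovl2), which leads from the dietary essential fatty acids to arachidonic acid and DHA, use different members. Many of these genes are known targets of SREBP-1c, a lipogenic transcription factor encoded by Srebf1.

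RefSeq promoter windows (mouse build GRCm38.p6) were matched by symbol for 6 of the 10 members: Elovl1, Elovl2, Elovl5, Elovl6, Fads2 and Fads6. Scd1, Scd2, Fads1 and Elovl3 are named only. The 5 windows shown belong to the members with an entry whose high-fat value was below the low-fat value in all 6 mice, on the fitted scale. Each line holds the 250 bases before a transcription start, 5′ to 3′ on the gene's strand, with the CCAAT box and the GC box GGGCGG, on either strand, in capitals.
Elovl6, chr3:129532136-129532385, plus strand: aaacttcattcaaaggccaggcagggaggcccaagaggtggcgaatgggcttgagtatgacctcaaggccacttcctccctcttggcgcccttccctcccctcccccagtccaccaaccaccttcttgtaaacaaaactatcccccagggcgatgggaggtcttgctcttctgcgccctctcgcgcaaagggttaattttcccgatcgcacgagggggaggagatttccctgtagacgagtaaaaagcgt
Elovl2, chr13:41220404-41220653, minus strand: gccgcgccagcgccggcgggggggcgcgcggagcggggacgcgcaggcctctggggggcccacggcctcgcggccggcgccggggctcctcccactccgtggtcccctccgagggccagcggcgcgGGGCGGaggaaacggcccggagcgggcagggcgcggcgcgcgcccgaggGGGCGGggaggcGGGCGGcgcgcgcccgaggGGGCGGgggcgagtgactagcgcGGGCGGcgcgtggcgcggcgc
Elovl5, chr9:77917115-77917364, plus strand: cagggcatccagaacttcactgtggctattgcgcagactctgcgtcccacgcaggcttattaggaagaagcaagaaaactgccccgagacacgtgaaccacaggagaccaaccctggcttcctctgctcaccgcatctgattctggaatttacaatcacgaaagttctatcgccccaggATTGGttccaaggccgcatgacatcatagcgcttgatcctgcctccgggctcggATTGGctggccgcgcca
Fads2, chr19:10101504-10101753, minus strand: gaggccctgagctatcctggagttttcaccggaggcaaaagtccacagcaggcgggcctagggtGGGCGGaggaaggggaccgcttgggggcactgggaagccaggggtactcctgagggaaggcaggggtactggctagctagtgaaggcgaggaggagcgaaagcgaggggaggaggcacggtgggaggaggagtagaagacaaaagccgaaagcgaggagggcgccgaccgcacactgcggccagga
Fads6, chr11:115297563-115297812, minus strand: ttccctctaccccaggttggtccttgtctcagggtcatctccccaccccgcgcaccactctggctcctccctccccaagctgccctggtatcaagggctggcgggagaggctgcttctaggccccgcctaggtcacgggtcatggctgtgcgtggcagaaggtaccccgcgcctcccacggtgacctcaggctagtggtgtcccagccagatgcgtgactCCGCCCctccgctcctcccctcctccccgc
Elovl5 held the CCAAT letters, as ATTGG on the printed strand, at positions -71 and -17 from its start, and no GGGCGG. The Elovl2 window shown had GGGCGG at -124, -75, -63, -44 and -21 and no CCAAT. Elovl2 has a second window in the table, chr13:41220163-41220412, not shown, with none of the 4 motifs searched. Fads2 and Fads6 had 1 GGGCGG each. Elovl6 had neither. The letters of the E-box, CANNTG, which can overlap the other motifs, were in the Elovl5 window at -161 and -117, in the Fads6 window at -43, and in none of the 3 others shown. TCACNCCAC, a form of the sterol regulatory element, was in none of the 5. Over 32851 RefSeq windows of this length, CCAAT was in 33.8%, GGGCGG in 32.7%, CANNTG in 66.2% and TCACNCCAC in 1.05%. These matches describe letters only.

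Values are the authors' gene reads scaled to 20 M per library, called reads per 20 M below. The step between low values gave an estimated depth of 15.1 to 25.0 M reads per library, at which 3 reads, the limit that a count of 0 allows, are worth 2.40 to 3.98. The 10 most abundant genes took 8.39 to 10.5% of the reads. No pair of libraries held identical values, and replicates of a group differed beyond counting error. All 10 members passed the filter on low values (10 or more in 3 or more libraries), which left 16563 genes; the lowest member value was 257. Ptprk, the targeted gene, stood at 2788 ± 83.7 in the low-fat libraries of WT mice and at 1271 ± 135 in those of KO mice (SD, n = 3). The high-fat fraction had 2407 ± 209 in WT mice and 1200 ± 19.3 in KO mice. It was lower in the KO libraries in each fraction, without overlap, and still detected.

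Hepatocyte markers (Alb, Apoa1, Apob and 5 others) summed to between 676786 and 869683 reads per 20 M over all libraries, with overlapping ranges in the 4 groups. Several marker lists of other liver cells moved with the fraction. The 9 Kupffer cell (liver macrophage) markers summed to 966, 1277 and 631 in WT low-fat, 10671, 2214 and 2160 in WT high-fat, 450, 722 and 641 in KO low-fat, and 9307, 2179 and 1976 in KO high-fat libraries 1 to 3. The 8 stellate cell markers summed to 180 to 810 in low-fat and 2403 to 4582 in high-fat libraries, and the 9 sinusoidal endothelial markers to 1282 to 3439 and 5510 to 16366. All 3 sums were higher in the high-fat library of every mouse, and the Kupffer cell sum rose most in replicate 1 of both genotypes, 11.0 times in WT and 20.7 times in KO. With the replicate block described below, 8 of 9 Kupffer cell, 8 of 8 stellate cell and 9 of 9 endothelial markers were called higher in high-fat libraries. Of these markers Des alone was at 0 in some library. The sum of the 6 cholangiocyte (bile duct cell) markers went the other way, with 371 to 507 in low-fat and 271 to 364 in high-fat libraries. Sox9 and Spp1 made up nearly all of this sum. Krt19, Krt7, Epcam and Cftr were at 7 or below in every library, failed the filter on low values and were not tested. Of the list, Sox9 was called lower by limma with the replicate block (log2 difference -0.59, adjusted p = 0.00405). The 5 lymphocyte markers summed to 23 to 283 in low-fat and 67 to 383 in high-fat libraries. Of them Ptprc and Cd3e alone passed the filter on low values and were tested, and neither was called. In the cholangiocyte list Krt19, Krt7 and Cftr, and in the lymphocyte list Cd79a, Nkg7 and Ms4a1, were at 0 in some library, and none was at 0 in all. The part of these cells in the results below was not tested, and in bulk RNA fewer cells of a type cannot be told apart from less RNA per cell.

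Scd1 was by far the most abundant member. It supplied 0.795 to 1.45% of all reads of a library and ranked between the second and the fifth of all genes. It took 75.2 to 81.4% of the reads of the 10 members, which together made up 1.02 to 1.82% of a library. Per kilobase of exon, the scale on which genes can be compared, the mean level over 12 libraries was 45303 for Scd1 (range 32504 to 59326). Then came the polyunsaturated-chain elongases Elovl5, at 4784 (2689 to 7278), and Elovl2, at 3676 (2709 to 4877), and then Elovl3, at 3195 (1056 to 6919). Below them were Fads2 at 2729 (1862 to 3705) and Fads1 at 1667 (1058 to 2741) reads per 20 M per kilobase. The low end held Fads6 at 561 (516 to 645), Elovl6 at 435 (235 to 950), Elovl1 at 185 (150 to 223) and Scd2 at 83.6 (47.0 to 172) per kilobase. Neighbours in this order had ranges without overlap only at 3 steps: Scd1 above Elovl5, Fads1 above Fads6, and Elovl6 above Elovl1. Within a library, where the genes share their source, Elovl5 and Elovl2 were each above Fads2, and Fads2 above Fads1, in 12 of 12 libraries. Elovl5 was above Elovl2 in 10 of 12, and Elovl3 was above Fads2 in 7 and above Fads1 in 9 of 12, so the place of Elovl3 in the order changed from library to library.

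**Figure D1:**
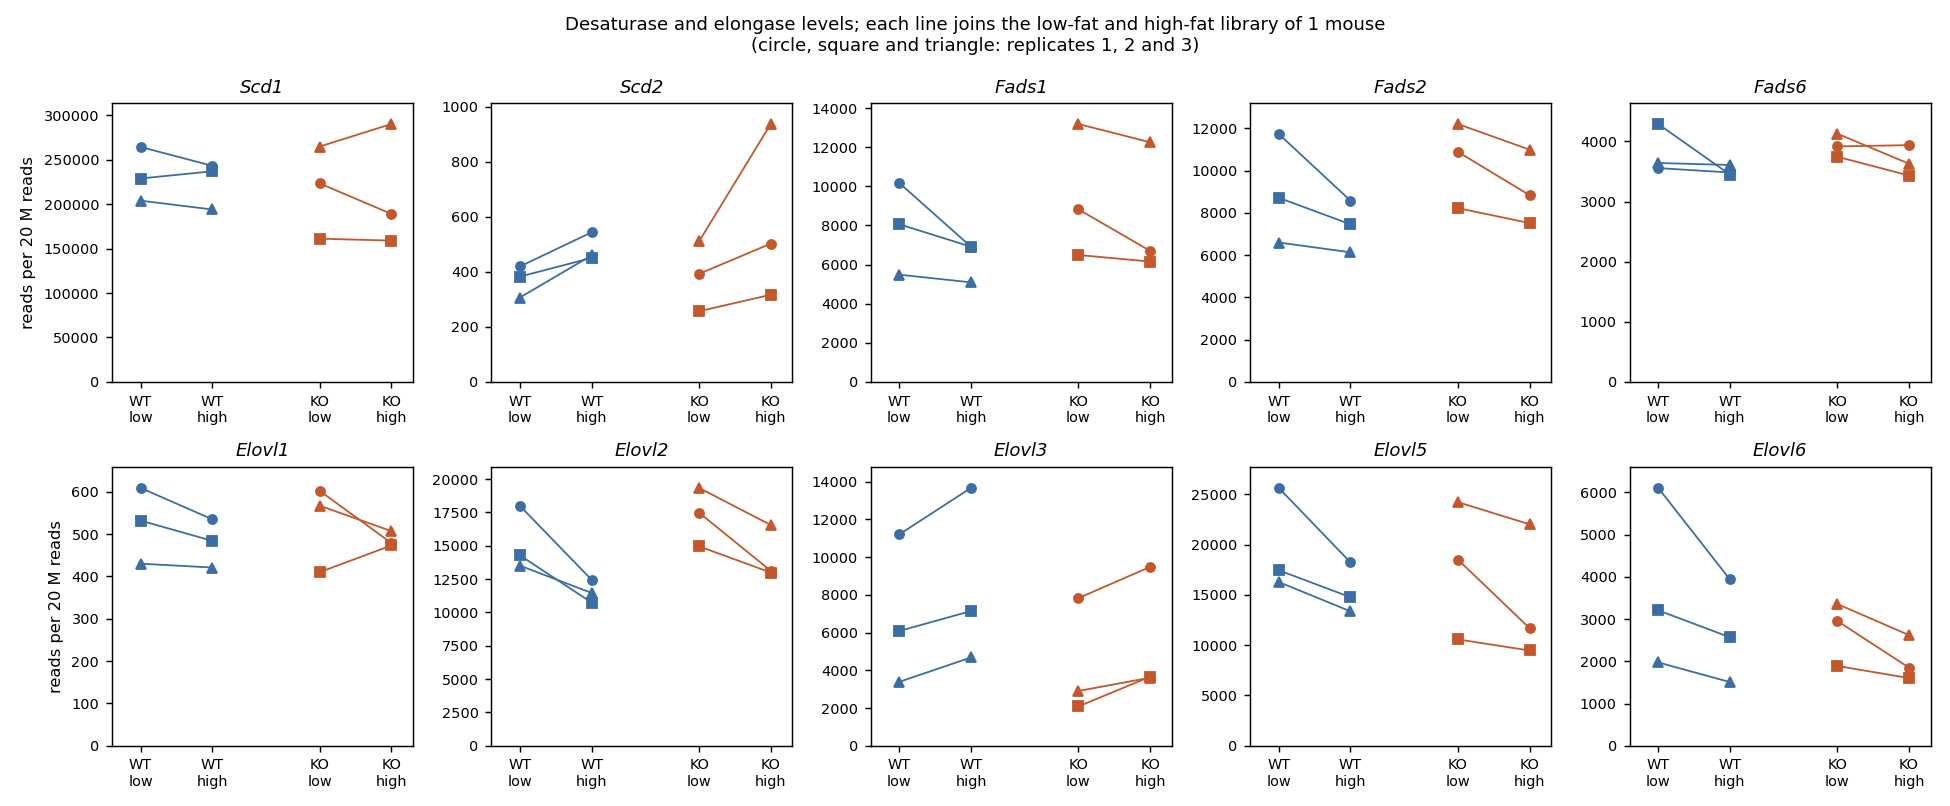
Level of each of the 10 genes (vertical axis, reads per 20 M, from 0, with its own scale for each gene) in 12 libraries; blue is WT, orange is KO, and a line joins the low-fat and high-fat library of 1 mouse. Lines fall for Elovl2, Elovl5, Elovl6, Fads1 and Fads2 and climb for Scd2 and Elovl3 in all 6 mice.

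Members differed widely in how far they varied between libraries. The highest library was 6.55 times the lowest for Elovl3, 4.05 times for Elovl6, 3.65 times for Scd2, 2.71 times for Elovl5 and 2.59 times for Fads1. It was 1.99 times for Fads2, 1.83 times for Scd1, 1.80 times for Elovl2, 1.49 times for Elovl1 and 1.25 times for Fads6. The SD between mice within a genotype, on mouse means of log2 levels, was 0.83 for Elovl3, a value that 1.19% of the 10517 tested genes with a mean of at least 100 exceeded. It was 0.59 for Elovl6 (3.07% of genes larger), 0.49 for Elovl5 (4.71%), 0.49 for Scd2 (4.85%), 0.45 for Fads1 (5.67%), 0.32 for Scd1 (11.4%) and 0.31 for Fads2 (12.5%), against a median gene of 0.13. Fads6, at 0.079, lay below most genes (83.7% larger).

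The same animals were extreme for several members. KO mouse 2 had the lowest mean of Scd1, Scd2, Elovl1, Elovl3, Elovl5 and Elovl6 among the 6 mice. KO mouse 3 had the highest mean of Scd1, Scd2, Fads1, Fads2, Fads6, Elovl2 and Elovl5. WT mouse 1 was highest for Elovl1, Elovl3 and Elovl6, and WT mouse 3 was lowest for Fads1 and Fads2. The highest mouse mean was 4.48 times the lowest for Elovl3 and 2.82 times for Elovl6.

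The first comparison was of the high-fat with the low-fat hepatocytes over both genotypes. The test was limma on log2(value + 2), with a Benjamini-Hochberg adjusted p under 0.05 as the call. With 4 group means and no term for the mouse, none of the 10 members was called, where 956 genes, 5.77% of those tested, were called. Since the labels give both libraries of a mouse, the same fit with a term for each mouse (the replicate block) stands beside it: 6 of the 10 members were called, 4 lower and 2 higher, where 1825 genes were called, 11.0% of those tested (6.76% higher and 4.26% lower). Elovl6, Elovl2, Fads2 and Fads6 fell and Scd2 and Elovl3 rose in the high-fat fraction by that fit. The median of the 10 members was -0.22 on the log2 scale, beside -0.023 over all genes tested. On the fitted scale 8 of the 10 lay on the same side in 6 of 6 mice, where 21.6% of genes did so. These 8 were lower for Elovl2, Elovl5, Elovl6, Fads1, Fads2 and Fads6 (background 11.6%) and higher for Scd2 and Elovl3 (9.96%).

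**Figure D2:**
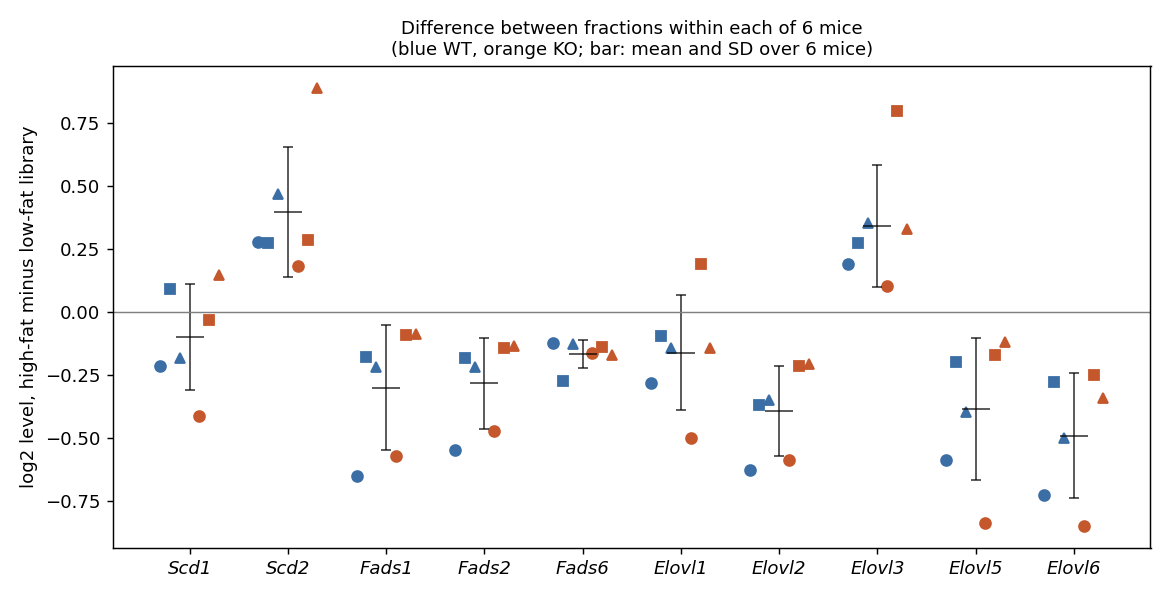
Difference in log2 level between the high-fat and the low-fat library of each mouse (vertical axis) for the 10 genes; points are mice, blue WT and orange KO, circles, squares and triangles are replicates 1, 2 and 3, and the bar is the mean and SD over 6 mice. Elovl6 has the lowest mean, -0.49, and Scd2 the highest, 0.40.

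Elovl6, which lengthens palmitate to stearate, stood at 6108, 3208 and 1975 reads per 20 M in the WT low-fat libraries and at 3942, 2571 and 1509 in the WT high-fat libraries of the same 3 mice. In KO mice it was at 2956, 1891 and 3358 in low-fat and at 1850, 1603 and 2621 in high-fat libraries. Each high-fat library was below its own low-fat library, at 62.6 to 84.8% of it, while the groups overlapped because mice differed more than fractions. The log2 difference was -0.49 (SE 0.088, adjusted p = 0.0137 with the replicate block and 0.429 without). The call was lost without WT mouse 1 (adjusted p = 0.0600).

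Elovl2, which lengthens the long polyunsaturated chains on the way to DHA, was at 17999, 14285 and 13513 reads per 20 M in WT low-fat and at 12451, 10745 and 11467 in WT high-fat libraries. The KO values were 17485, 14958 and 19344 in low-fat and 13125, 12996 and 16560 in high-fat libraries. High-fat libraries held 69.2 to 86.9% of the low-fat level of their mouse, and in WT the 3 low-fat libraries were all above the 3 high-fat ones. The log2 difference over both genotypes was -0.39 (SE 0.074, adjusted p = 0.0163 with the replicate block and 0.0757 without). Leaving out WT mouse 1 or WT mouse 2 ended the call (adjusted p = 0.0840 and 0.0598).

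Elovl5, the elongase that acts on the products of Fads2, had 25633, 17444 and 16279 reads per 20 M in WT low-fat and 18233, 14771 and 13366 in WT high-fat libraries. KO low-fat libraries held 18507, 10574 and 24216 and KO high-fat libraries 11689, 9471 and 22014. Every high-fat library was lower than its partner, at 63.2 to 90.9% of it. The log2 difference of -0.38 (SE 0.10) missed the threshold with the replicate block (adjusted p = 0.0536) and without it (0.475). It passed without KO mouse 1 (0.0311) or KO mouse 2 (0.0436).

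Fads2, the desaturase that opens the polyunsaturated route, was at 11737, 8717 and 6600 reads per 20 M in WT low-fat and 8583, 7462 and 6136 in WT high-fat libraries. In KO it was at 10892, 8228 and 12209 in low-fat and 8838, 7519 and 10996 in high-fat libraries. The high-fat value was lower in each mouse, at 73.1 to 93.0% of the low-fat value. The log2 difference was -0.28 (SE 0.072, adjusted p = 0.0450 with the replicate block and 0.400 without), and this call was lost when any mouse but KO mouse 2 was left out, up to an adjusted p of 0.174.

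Fads1, which acts after Fads2 and yields arachidonic and eicosapentaenoic acid, was at 10172, 8061 and 5484 reads per 20 M in WT low-fat and 6912, 6914 and 5091 in WT high-fat libraries. Its KO values were 8822, 6490 and 13188 in low-fat and 6699, 6154 and 12255 in high-fat libraries. Its high-fat value was the lower one in 6 of 6 mice, at 68.0 to 94.8%. The log2 difference of -0.30 (SE 0.089) was not called (adjusted p = 0.0702 with the replicate block, 0.552 without).

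Fads6, a member of the desaturase family whose substrate is less well described, varied least. It was at 3557, 4290 and 3642 reads per 20 M in WT low-fat, 3484, 3450 and 3609 in WT high-fat, 3917, 3746 and 4129 in KO low-fat, and 3939, 3433 and 3630 in KO high-fat libraries. In the deposited values 5 of 6 mice were lower in the high-fat library and KO mouse 1 was at 100.6% of its low-fat value. After TMM scaling all 6 were lower, with a log2 difference of -0.17 (SE 0.043, adjusted p = 0.0459 with the replicate block and 0.153 without). With the deposited scaling alone the difference was -0.11 and the call was lost (adjusted p = 0.301), as it was when any mouse but KO mouse 1 was left out, up to an adjusted p of 0.154.

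Scd2, a second stearoyl-CoA desaturase best known from tissues other than adult liver, moved the other way. It was at 420, 383 and 307 reads per 20 M in WT low-fat and 544, 451 and 460 in WT high-fat libraries, without overlap. KO libraries held 393, 257 and 511 in low-fat and 503, 317 and 938 in high-fat, where KO mouse 3 stood far above the rest. The high-fat library was higher in 6 of 6 mice, at 118 to 184% of the low-fat value, for a log2 difference of 0.40 (SE 0.094, adjusted p = 0.0351 with the replicate block and 0.448 without). The call was lost without any 1 WT mouse (adjusted p between 0.0984 and 0.108) or without KO mouse 3, where the difference was 0.29.

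Elovl3, an elongase of saturated and monounsaturated very long chains, was also higher in the high-fat fraction. WT low-fat libraries held 11203, 6083 and 3388 reads per 20 M and WT high-fat libraries 13666, 7140 and 4681. KO low-fat libraries held 7826, 2086 and 2906 and KO high-fat libraries 9481, 3660 and 3608. In every mouse the high-fat library was the higher one, at 117 to 175% of the low-fat one, although animals differed much more than fractions did. The log2 difference was 0.34 (SE 0.084, adjusted p = 0.0406 with the replicate block and 0.723 without), and it was not called when any 1 WT mouse or KO mouse 3 was left out, up to an adjusted p of 0.124.

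Scd1, the main desaturase of oleate synthesis in liver, did not share a common direction. It was at 264450, 228911 and 203998 reads per 20 M in WT low-fat, 243241, 237028 and 194062 in WT high-fat, 223376, 161205 and 264864 in KO low-fat, and 189124, 159011 and 290223 in KO high-fat libraries. The high-fat library was lower in 4 of 6 mice, at 84.7 to 110% of the low-fat one. The log2 difference of -0.10 (SE 0.16) was not called (adjusted p = 0.729 with the replicate block).

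Elovl1, which supplies very long saturated chains for sphingolipids, was at 609, 532 and 430 reads per 20 M in WT low-fat, 535, 484 and 421 in WT high-fat, 602, 410 and 567 in KO low-fat, and 479, 473 and 507 in KO high-fat libraries. The high-fat value was the lower one in 5 of 6 mice, and the log2 difference of -0.16 (SE 0.086) was not called (adjusted p = 0.265 with the replicate block).

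The mice whose Kupffer cell markers rose most, WT mouse 1 and KO mouse 1, also had the 2 lowest within-mouse differences of 8 of the 10 members: Elovl6, Elovl2, Elovl5, Fads1 and Fads2, the uncalled Scd1 and Elovl1, and Elovl3, which was higher in the high-fat fraction. Scd2 and Fads6 were the exceptions. The share of all genes tested that had their 2 lowest differences in these mice was not counted, so this is not read as a trait of the members. The log2 difference of Elovl6, for example, was -0.73 and -0.85 in them and -0.25 to -0.50 in the 4 other mice. With both mice left out, a setting chosen after seeing the data, the log2 difference with the replicate block was -0.34 for Elovl6 (adjusted p = 0.00689), -0.28 for Elovl2 (0.00999) and -0.22 for Elovl5 (0.0482). It was 0.48 for Scd2 (0.0225) and 0.44 for Elovl3 (0.00843). Fads2 at -0.17 (0.0696), Fads6 at -0.18 (0.0699) and Fads1 at -0.14 (0.111) were not called in these 4 mice. As the mice were picked from these data, these adjusted p-values are descriptive only. The 2 mice left out also had the largest endothelial rises, 5.15 times in WT and 8.15 times in KO. In the 4 mice kept, the sums still rose, by 1.73 to 3.42 times for Kupffer, 3.60 to 7.37 for stellate and 2.03 to 3.04 for endothelial markers. This setting therefore did not remove the other cells. The part of the other cells in the differences of all 6 mice was not tested. The 8 hepatocyte markers had a median log2 difference of -0.11; Hnf4a fell by 0.28 and Fabp1 rose by 0.32 with the replicate block (adjusted p = 0.0323 and 0.0470).

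Within each genotype no member was called between fractions. In WT the fit called 0 genes, 0.00% of those tested, with or without the replicate block (smallest adjusted p = 0.0550 and 0.0717 by limma; 3213 and 1847 genes at an unadjusted p under 0.05). In KO it called 139 genes without the block, 0.839% of those tested, and 282 with it, 1.70%. In WT the fractions did not overlap for Elovl2, which was lower in high-fat (3.51% of genes were so), and Scd2, which was higher (10.4%; 13.9% in either direction). In KO no member was free of overlap (11.2% of genes), nor was any over the 6 and 6 libraries of both genotypes (4.84%). The interaction, the KO minus the WT difference between fractions, called 0 genes (24 at an unadjusted p under 0.05, and 67 with the replicate block). For the members it lay between 0.0037 (Scd1) and 0.14 (Elovl3) on the log2 scale. With the replicate block the 95% confidence interval was -0.74 to 0.75 for Scd1 (SE 0.32), -0.25 to 0.53 for Elovl3 (SE 0.17), -0.39 to 0.43 for Elovl6 (SE 0.18) and -0.18 to 0.21 for Fads6 (SE 0.085). Without the block the SE was 0.41 for Scd1 and 0.82 for Elovl3.

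Genes that feed, complete or regulate these reactions were read from fixed lists. None of the genes in these 5 lists was called without the replicate block (background 5.77%), so the calls that follow are from the fit with it (background 11.0%). In precursor supply and activation, 3 of 9 fell and the median log2 difference was -0.29, with all 9 below 0. Acly, the ATP citrate lyase that makes cytosolic acetyl-CoA, stood at 24799, 12573 and 10742 reads per 20 M in WT low-fat and 13224, 9726 and 6689 in WT high-fat libraries. In KO it stood at 18299, 7919 and 12845 in low-fat and 8913, 5367 and 8786 in high-fat libraries. It fell by 0.74 (SE 0.11, adjusted p = 0.00810), which is a larger difference than that of any of the 10 desaturases and elongases. Acaca, the acetyl-CoA carboxylase that makes malonyl-CoA, fell by 0.47 (SE 0.10, adjusted p = 0.0279), and Acsl3, an acyl-CoA synthetase, by 0.34 (SE 0.064, adjusted p = 0.0167).

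Of 10 regulators 2 fell. Srebf1 was at 32501, 33633 and 16236 reads per 20 M in WT low-fat, 25023, 28774 and 14015 in WT high-fat, 22332, 23509 and 29791 in KO low-fat, and 19099, 18137 and 25932 in KO high-fat libraries. Each mouse had less of it in the high-fat library (log2 difference -0.32, SE 0.070, adjusted p = 0.0261). Insig1, an anchor that holds SREBP in the endoplasmic reticulum and is itself an SREBP target, fell by 0.31 (SE 0.046, adjusted p = 0.00745). Mlxipl (ChREBP, the carbohydrate response factor) at 0.16, Insig2 at 0.011 and Ppara, the fatty acid receptor of oxidation genes, at 0.064 were not called (adjusted p = 0.682, 0.911 and 0.396).

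In the elongation cycle and its electron supply, 1 of 10 rose and 1 fell. Cyb5a, a cytochrome b5, rose by 0.19 (SE 0.051, adjusted p = 0.0488) and Cyb5r3, the reductase that feeds cytochrome b5, fell by 0.28 (SE 0.069, adjusted p = 0.0399). The cycle enzymes Hsd17b12 (log2 difference 0.010), Tecr (-0.19), Hacd2 (-0.12) and Hacd3 (-0.057) were not called. Of 6 genes at the end of the DHA route and in phospholipid remodelling, Lpcat3, which loads polyunsaturated chains into phospholipids, fell by 0.20 (SE 0.043, adjusted p = 0.0231), and no other was called. Of 7 other desaturases and elongases 4 passed the filter and none was called.

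The question of the knockout was whether the members differ between KO and WT hepatocytes within a fraction, and over the mean of both fractions of a mouse. In each of these 3 comparisons the fit called only Ptprk, 0.00604% of the genes tested, and none of the 10 members (286, 334 and 363 genes at an unadjusted p under 0.05). Ptprk had a log2 difference of -1.13 (SE 0.094, adjusted p = 0.00131) in low-fat and -0.99 (SE 0.094, adjusted p = 0.00506) in high-fat libraries by limma. Of the members, 6 were above and 4 below 0 in each fraction, with a median of 0.018 in low-fat and 0.048 in high-fat, beside -0.0036 and -0.014 over all genes. The low-fat and high-fat comparisons draw on the same mice.

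**Figure D3:**
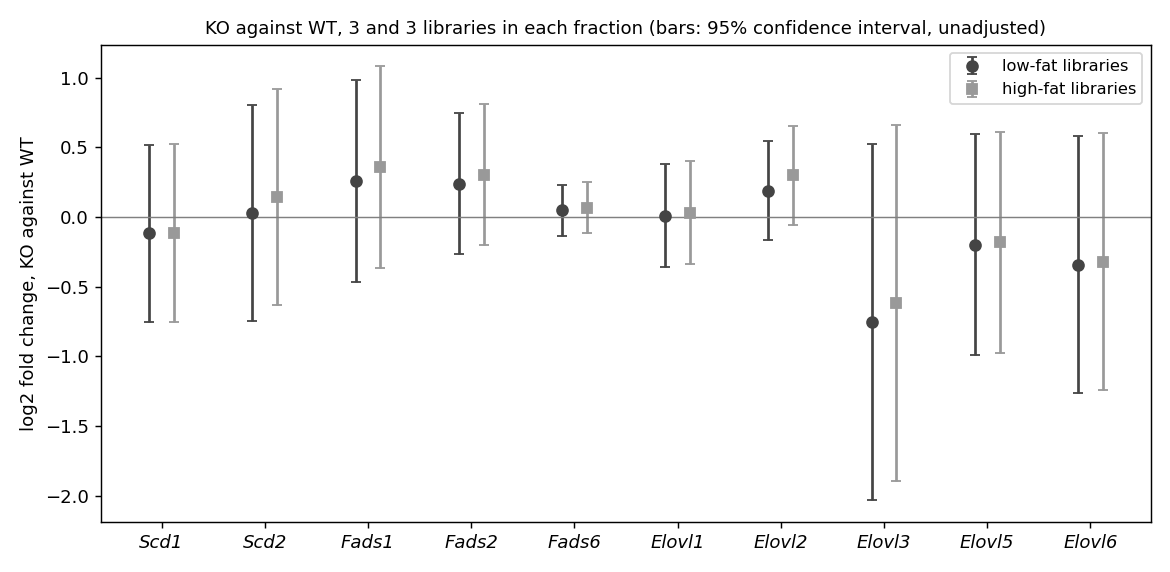
Log2 fold change of KO against WT (vertical axis) for the 10 genes in low-fat (dark circles) and high-fat (grey squares) libraries, 3 against 3; bars are unadjusted 95% confidence intervals from limma. Every interval includes 0, and Fads6 has the narrowest and Elovl3 the widest.

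On 6 mouse means Elovl3 had the lowest KO against WT difference, -0.69 (95% confidence interval -1.87 to 0.50, SE 0.51). Elovl6 was at -0.33 (-1.18 to 0.52, SE 0.36), Elovl5 at -0.19 (SE 0.31) and Scd1 at -0.12 (-0.71 to 0.48, SE 0.25). Elovl1 at 0.020 (SE 0.13), Fads6 at 0.056 (-0.13 to 0.25, SE 0.081) and Scd2 at 0.084 (SE 0.30) were near 0. Of the 4 polyunsaturated-route genes Elovl5 was below 0 and the 3 others above it, none called, with Elovl2 at 0.24 (-0.079 to 0.57, SE 0.14), Fads2 at 0.27 (SE 0.20) and Fads1 at 0.31 (SE 0.28). The adjusted p was 0.999 for each by limma. The interval was narrowest for Fads6, whereas those of Elovl3 and Elovl6 held a decrease by more than 1 on the log2 scale as well as an increase.

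Elovl2 was the only member without overlap between genotypes, and in the high-fat libraries alone (in low-fat, 4.97% of genes did not overlap). Its KO values there, 13125, 12996 and 16560 reads per 20 M, were above the WT values, 12451, 10745 and 11467, and 2.02% of genes tested were higher in KO without overlap (4.51% in either direction). Elovl3 came closest to a call when same-numbered WT and KO mice, which are different animals, were treated as pairs: unadjusted p = 0.00610 in low-fat and 0.0176 in high-fat, adjusted p = 0.943 and 0.997 by limma. On mouse means the unadjusted 95% confidence interval of Elovl3 was then -1.15 to -0.22 (SE 0.19, adjusted p = 0.997). In the same comparison of low-fat libraries the markers of other liver cells had a median KO against WT difference of -0.80 for Kupffer cells and -0.67 for endothelial cells, with none called. Their part in the KO values was not tested. No gene of the pathway lists was called between genotypes in any of these comparisons.

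The 10 members were also compared by how their log2 levels ran across the 12 libraries, as a description of 6 mice that share libraries and depth. Fads1 and Fads2 ran together (Pearson r = 0.946), and the gene most like Fads1 was Sc5d, a desaturase of cholesterol synthesis (r = 0.955). Srebf2, which encodes the SREBP of cholesterol synthesis, was among the 3 genes most like Fads2 (r = 0.927). Scd1 and Elovl5 ran together (r = 0.952), and Elovl5 was most like Acsl5, an acyl-CoA synthetase (r = 0.985), and Acss2, which makes acetyl-CoA from acetate (r = 0.969). Among the genes most like Elovl6 were Itpk1 (r = 0.942) and Fasn, the fatty acid synthase (r = 0.931). Those most like Elovl2 included Dlst (r = 0.946) and Mob1b (r = 0.942). Fads6 was most like Rnf103 (r = 0.912) and Elovl1 like 4930534D22Rik (r = 0.927). Elovl3 ran apart from most members, with r between -0.29 (Fads6) and 0.52 (Elovl6).

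Scd2 was most like 2 other genes of its cluster on chromosome 19, Scd3 (r = 0.905) and Scd4 (r = 0.902). Relative to Scd1 in the same library, Scd2 had 0.150 to 0.323% as many reads, Scd3 0.121 to 0.280% and Scd4 0.0471 to 0.114%. The KO high-fat library of mouse 3 was the highest for all 3, with 938 reads per 20 M of Scd2, 812 of Scd3 and 331 of Scd4. These genes share exonic sequence with Scd1: 2.66% of the 50-base words of Scd2, 4.77% of Scd3 and 2.26% of Scd4 also occur in Scd1. The authors' handling of reads that fit several genes is not given in the sources used here, so low levels beside the far more abundant Scd1 are uncertain. Scd3 (log2 difference 0.17) and Scd4 (0.19) were not called between fractions.

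**Figure D4:**
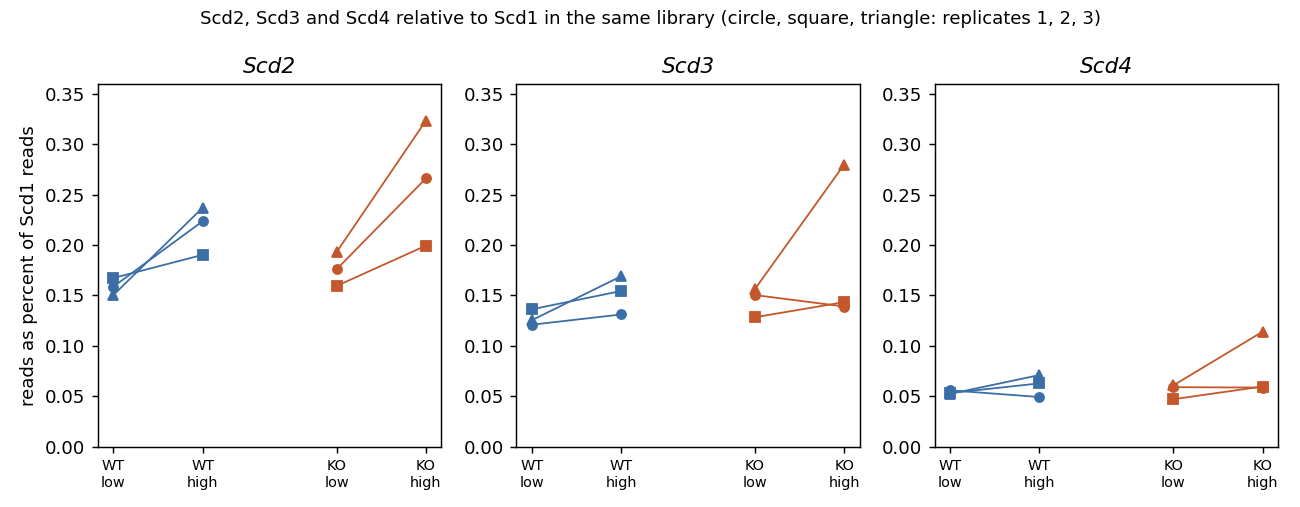
Reads of Scd2, Scd3 and Scd4 as a percent of Scd1 reads in the same library (vertical axis, from 0) in the 4 groups; blue is WT, orange is KO, and a line joins the libraries of 1 mouse. Scd2 climbs in all 6 mice and reaches 0.323% in the high-fat library of KO mouse 3.

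Elovl3, whose mouse liver level is known to follow the time of day and to be higher in males, differed more between animals than any other member. Of the 12 listed clock genes, 2 picked after seeing that they differed widely between the same animals are given first. Npas2, a clock activator, was at 368, 356 and 98 reads per 20 M in WT low-fat and 208, 38 and 112 in KO low-fat libraries, with like values of 390, 299 and 102 and of 228, 27 and 96 in the high-fat libraries. Dbp, a clock output factor, was at 77, 351 and 611 in WT low-fat and 256, 2011 and 1630 in KO low-fat libraries, and at 77, 265 and 593 and at 231, 1715 and 1498 in high-fat libraries. The mouse with the most Elovl3, WT mouse 1, had the least Dbp, and KO mouse 2 had the least Elovl3 in its low-fat library and the most Dbp. The other listed clock genes did not all vary so widely. Over the 12 libraries Clock ran from 1788 to 2401, Per2 from 367 to 928, Per1 from 636 to 2250 and Nr1d1 from 642 to 3538. Per3, from 40 to 522, and Ciart, from 16 to 185, did vary widely. Cry1 was called lower in the high-fat fraction by limma with the replicate block (log2 difference -0.34, SE 0.088, adjusted p = 0.0461). The part of the clock in the spread of Elovl3 or in its KO difference was not tested. Ddx3y, on the Y chromosome, was at 1444 to 1808 in all 12 libraries. Uty, Kdm5d and Eif2s3y, also on the Y chromosome, were detected in each library, and Xist, which female cells express, was at 0 to 6. By these levels all 6 mice read as male.

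**Figure D5:**
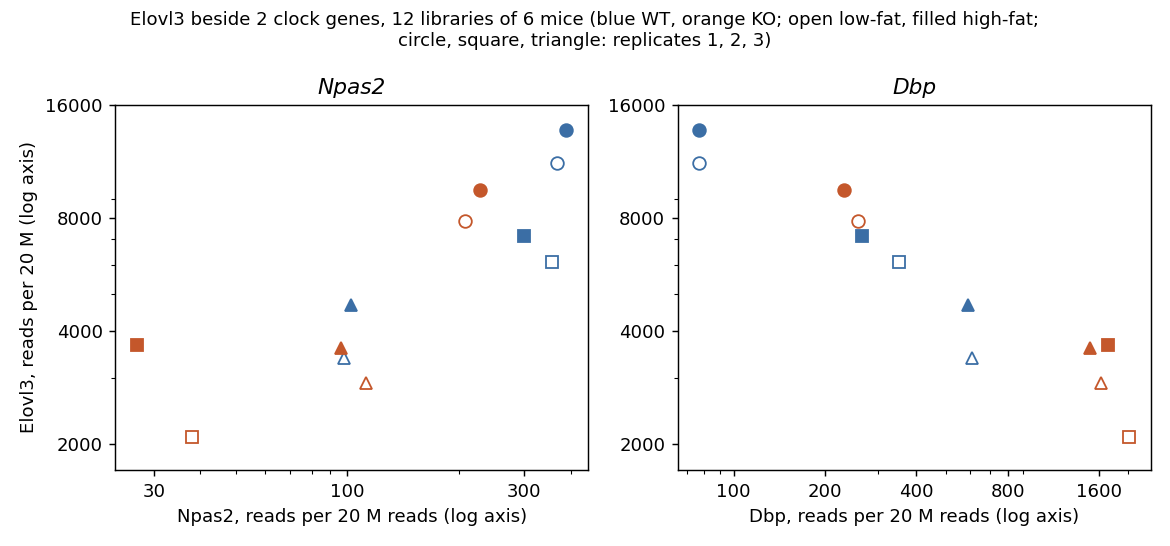
Elovl3 level (vertical log axis, reads per 20 M) against Npas2 (left) and Dbp (right, horizontal log axes, reads per 20 M); points are 12 libraries of 6 mice, blue WT and orange KO, open low-fat and filled high-fat. Dbp runs from 77 reads per 20 M in WT mouse 1 to 2011 and 1715 in the low-fat and high-fat libraries of KO mouse 2. Elovl3 is at 2086 and 3660 in these 2 libraries. KO mouse 3 lies near, with Dbp at 1630 and 1498 and Elovl3 at 2906 and 3608.

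The gene most like Elovl3 was 2510009E07Rik (r = 0.961), then Pitx3 (r = 0.947), which overlaps Elovl3 on the opposite strand, and Akap2 (r = 0.946). Elovl1 and Cdc20 also overlap on opposite strands. Whether the counts used strand is not stated, so reads from any stretch of exon shared by the genes of such a pair cannot be told apart. How much exon they share was not measured. Elovl6 overlaps the annotated Gm43072 on the same and Gm35986 on the opposite strand, and Scd2 and Fads1 each hold a microRNA gene, Mir5114 and Mir6993.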

How the data were processed

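PolyA RNA of hepatocyte fractions was sequenced in 12 libraries of 6 mice. The deposited values are scores: gene reads that the authors scaled to 20 M per library and rounded up to whole numbers, as read from the values of the deposited table. The submitters' processing notes name the build mm9; aligner, counter and annotation are not given in the sources used here, and gene IDs were read against GENCODE M21 (52403 of 52636 found), so no gene coordinates are printed. Values were scaled by TMM factors, and log2(value + 2) was fitted with limma 3.58.1 in R 4.3.3 (4 group means over 12 libraries, variance trend, Benjamini-Hochberg over 16563 genes, 7 comparisons), after a test on simulated data. No count model was used, since scaled values are not counts. Genotypes were also compared on 6 mouse means. SE and intervals come from these fits.

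Named are all 10 members, Ptprk, listed pathway genes that were called (up to the 5 with the largest difference in a comparison) with 8 fixed regulators and cycle enzymes, and the 3 genes most like each member, of which some are not reported here. The members and lists were chosen with earlier results of these data known. The low-fat and high-fat library of a number share a mouse by the labels. Deviations from group means correlated by 0.516 on average within WT mice and 0.165 within KO mice, against -0.258 and -0.0762 between mice. By mouse the values were 0.469 to 0.582 in WT, and 0.044, -0.0087 and 0.460 in KO mice 1, 2 and 3. KO mice 1 and 2 were thus below the limit of 0.1 used for pairing, and their libraries were paired by the labels alone. Same-numbered WT and KO libraries, of different animals, correlated by 0.251 to 0.396 in low-fat and by -0.171 to 0.490 in high-fat libraries, so their numbers met the limit of 0.1 for pairing in low-fat only. Alternatives changed the pseudocount, filter, scaling, weights, block, samples fitted and libraries left out. Replicates are separate mice, 3 per genotype. Between fractions with the replicate block, p-values measure the spread of the high-fat minus low-fat differences within mice. Without the block, the fit of group means over all libraries treats the low-fat and high-fat library of a mouse as independent. On mouse means without the block, p-values measure the spread between mice of a genotype.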

Additional observations from a re-analysis of the deposited data

How the results depend on the processing

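Leaving out libraries turned the direction of several KO against WT differences, none of which was called; the cause was not tested. On the log2 scale the ranges in low-fat libraries, each library left out in turn, were -0.28 to 0.10 for Scd1, -0.20 to 0.32 for Scd2, -0.016 to 0.52 for Fads1, -0.00066 to 0.10 for Fads6, -0.12 to 0.20 for Elovl1, -0.47 to 0.16 for Elovl5 and -0.69 to 0.087 for Elovl6. In high-fat libraries they were -0.40 to 0.073 for Scd1, -0.31 to 0.51 for Scd2, -0.054 to 0.094 for Elovl1 and -0.58 to 0.072 for Elovl5. On mouse means, each mouse left out with both libraries, they were -0.34 to 0.088 for Scd1, -0.26 to 0.41 for Scd2, -0.0052 to 0.53 for Fads1, -0.073 to 0.13 for Elovl1, -0.52 to 0.11 for Elovl5 and -0.68 to 0.041 for Elovl6. The Scd1 difference between fractions with the replicate block was 0.0064 without mouse 1 of each genotype.

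Counts of called genes with a library or mouse left out were 1 to 1 for KO against WT in low-fat, 0 to 1 in high-fat, 0 to 0 on mouse means, 0 to 0 between fractions in WT, 0 to 37 in KO (139 with all libraries), 604 to 1103 over both genotypes, 0 to 0 for the interaction, and 546 to 2726 over both genotypes with the replicate block, where they were 546, 690 and 1028 without WT mouse 1, 2 and 3 and 939 without KO mouse 3. The high-fat count was 0 without WT library 3 or KO library 2, and the count over both genotypes was lowest without the low-fat (604) or high-fat (607) library of KO mouse 1. Fitting only the libraries compared gave 0 for KO against WT in high-fat and 0 between fractions in KO. For KO against WT on mouse means, a term for the replicate number, which pairs different animals, gave 0. The replicate block gave 282 between fractions in KO and 1825 over both genotypes. A filter of at least 100 gave 0 between fractions in KO, 308 over both genotypes and 897 with the replicate block. Voom weights gave 0 in KO, and a pseudocount of 10 gave 1 in WT. The replicate block changed no other count of calls by over 1.5 times, and of the members' calls only the 6 given. With it, no filter on low values ended the calls of Scd2 (adjusted p = 0.0668), Elovl3 (0.101), Fads2 (0.0839) and Fads6 (0.0978), a filter of at least 100 those of Fads2 (0.0705) and Fads6 (0.124), median-of-ratios scaling those of Fads2 (0.0601) and Fads6 (0.0573), and voom weights that of Fads6 (0.0547). Elovl5 was called with deposited scaling alone (0.0300) and with voom weights (0.0489). Elovl6 and Elovl2 kept their calls under these settings. Every member value lay above the limit of 3 reads.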
